A study of Mus musculus with 4 samples.

Results

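The genes described here encode the subunits of core-binding factor and the corepressors of the TLE and ETO families, measured in MC38 cells, a mouse colon carcinoma line. The 10 genes are Cbfb, Runx1, Runx2, Tle1, Tle2, Tle3, Tle4, Tle6, Aes and Cbfa2t2, found by symbol among the 26322 genes listed, and all 10 were among the 12207 genes that passed the filter on low values. The set was chosen from earlier results of the same comparison, in which Cbfb, Runx1, Runx2 and Tle4 were known to differ, together with relatives of these genes. Their differences between the groups are therefore given as a description, with standard errors and 95% intervals but no p-value.

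Both groups had been electroporated with Cas9 and a guide RNA. Cells given a non-targeting guide, labelled WT, are called sgNT, and cells given a guide against Cbfb, labelled CbfbKO, are called sgCbfb. RNA was taken no sooner than 1 week later. Of 3 replicates collected in each group 2 were sequenced, because RNA of the third was of poor quality. The sources used here do not say whether the sgCbfb cells were a clone or a mixed population, nor whether the replicates were separate cultures. The errors given therefore reflect only variation among these libraries, which may be technical. They come from limma, which draws each gene's spread towards a trend over all tested genes, so they are not that gene's spread alone.

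The 4 libraries held 3189035 to 3907936 reads counted on genes, and 1 read was worth 0.256 to 0.314 CPM, the unit of reads scaled to a fixed library total. Differences are on the deposited log2 CPM scale, and reads and CPM were recovered from it without the prior count it contains. Of the 12207 tested genes, limma placed 192 higher in sgCbfb cells (1.57%) and 153 lower (1.25%), 345 in all (2.83%), at an adjusted p-value under 0.05 with Benjamini-Hochberg adjustment. The total was 147 and 152 without sgCbfb replicate 1 and 2, 83 after quantile normalization, and 0 in limma when eBayes was run with no trend (1461 at an unadjusted p-value under 0.05), so these shares depend on the setting. Both sgCbfb libraries lay above both sgNT libraries for 3342 of the tested genes (27.4%) and below them for 2047 (16.8%). With 2 libraries against 2, an exact permutation test cannot give a p-value under 0.333. Against its label as a colon carcinoma line, MC38 showed almost no intestinal epithelial markers. The 12 markers (Epcam, Cdh1, Krt8, Krt18, Krt19, Krt20, Cdx1, Cdx2, Vil1, Lgals4, Muc2 and Lgr5) together gave 6 to 7 reads in each library, and 5 of them, Krt18, Cdx1, Vil1, Lgals4 and Muc2, had no read in any library. The 14 blood cell markers together gave 3 and 7 reads in the sgNT libraries and 9 and 10 in the sgCbfb libraries. Cd3e, Lyz2, Itgam and Adgre1 were among those at 0 in every library. Only Cd68 and Cd74 were tested, and neither passed the threshold. In sgNT and then sgCbfb libraries Cd68 gave 3, 0, 6 and 2 reads and Cd74 gave 1, 2, 3 and 6. The 8 mesenchymal markers were uneven. Vim gave 6737 to 8669 reads, Col3a1, Fn1 and Cdh2 gave 84 to 386, and Pdgfrb gave 4 to 16, while Acta2 and Tagln gave at most 2 and Thy1 gave none. Of these markers 5 were tested and 1 was called, Col3a1, a fibrillar collagen gene that fell by 0.90 on the log2 scale (386 and 354 reads in sgNT, 217 and 197 in sgCbfb).

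Core-binding factor is a heterodimer. A RUNX protein contacts DNA through its Runt domain, and CBFβ, the product of Cbfb, does not touch DNA but raises the affinity of RUNX for it and shields RUNX from degradation. RUNX proteins activate or repress a target depending on the cofactors they bring. For repression they can recruit TLE proteins, the mammalian relatives of Drosophila Groucho, through a short motif at the RUNX C terminus. TLE proteins also serve HES and TCF/LEF factors and act through histone deacetylases. Aes encodes a short family member that lacks the WD40 repeats of the full-length proteins, and Tle6 is a divergent one. Cbfa2t2 belongs to the ETO family, whose founding member is fused to RUNX1 in leukaemia, and which binds histone deacetylase complexes. In blood cells and bone these partnerships set cell identity.

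Promoter sequence is shown for the RUNX genes and Tle4 because these are the members that passed the threshold as higher in sgCbfb cells, with the first of the Tle4 windows. Windows of 300 bases, from 250 bases before to 50 bases after an annotated start, were taken from RefSeq for GRCm38.p6 and matched 9 of the 10 genes with 12 windows, leaving Aes. Each window was searched on both strands for the RUNX core motif TGTGGT and its variant TGCGGT, which do not overlap in these windows. Each sequence is written 5′ to 3′ on the strand of the gene, which is the minus strand for all 4, with motif matches in capitals. A match on the opposite strand appears as ACCACA.
Runx1 start 1 chr16:92826025-92826324: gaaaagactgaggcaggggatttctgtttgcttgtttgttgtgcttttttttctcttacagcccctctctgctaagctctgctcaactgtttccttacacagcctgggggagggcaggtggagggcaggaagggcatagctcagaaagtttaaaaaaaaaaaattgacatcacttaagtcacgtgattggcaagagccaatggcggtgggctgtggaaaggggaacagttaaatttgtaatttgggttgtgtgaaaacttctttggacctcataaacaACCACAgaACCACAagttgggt
Runx1 start 2 chr16:92697280-92697579: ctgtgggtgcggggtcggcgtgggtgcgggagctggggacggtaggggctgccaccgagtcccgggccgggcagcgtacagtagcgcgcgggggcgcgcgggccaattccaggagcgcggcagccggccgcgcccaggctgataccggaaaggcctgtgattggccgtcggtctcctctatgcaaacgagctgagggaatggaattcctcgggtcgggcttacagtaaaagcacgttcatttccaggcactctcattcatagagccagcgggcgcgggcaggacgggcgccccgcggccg
Runx2 chr17:44814578-44814877: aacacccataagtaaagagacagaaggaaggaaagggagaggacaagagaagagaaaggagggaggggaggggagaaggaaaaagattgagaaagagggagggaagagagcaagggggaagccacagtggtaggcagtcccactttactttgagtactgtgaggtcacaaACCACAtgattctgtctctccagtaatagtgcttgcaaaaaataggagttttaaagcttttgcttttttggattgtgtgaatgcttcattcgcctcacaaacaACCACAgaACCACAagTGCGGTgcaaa
Tle4 start 1 chr19:14598134-14598433: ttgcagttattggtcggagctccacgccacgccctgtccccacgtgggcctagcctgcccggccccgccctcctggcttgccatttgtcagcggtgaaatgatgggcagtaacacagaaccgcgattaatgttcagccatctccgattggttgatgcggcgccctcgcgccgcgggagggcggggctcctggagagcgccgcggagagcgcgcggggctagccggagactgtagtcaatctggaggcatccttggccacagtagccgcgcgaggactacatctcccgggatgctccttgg

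The first Runx1 window, from the distal of both starts, held 2 matches to TGTGGT on the opposite strand, beginning 29 and 37 bases after the start. The second Runx1 window held none. The Runx2 window held 4 matches, with TGTGGT on the opposite strand beginning 80 bases before the start (position -80) and 24 and 32 bases after it, and TGCGGT on the gene's own strand beginning 40 bases after it. The pair after the start lay in a run of 22 bases that the windows of Runx1 and Runx2 share exactly, aaacaaccacagaaccacaagt, and that no other window in the table contains. Neither Tle4 window held a match, nor did any window of Cbfb, Tle1, Tle2, Tle3, Tle6 or Cbfa2t2.

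**Figure D1:**
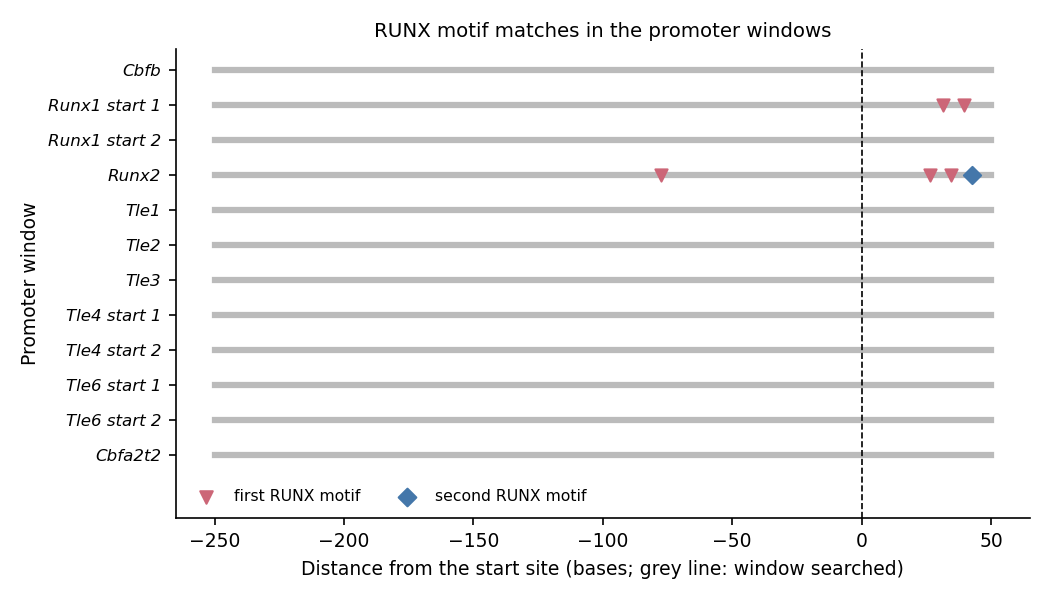
Matches to the RUNX motifs in the 12 promoter windows, by distance from the annotated start in bases. Triangles are TGTGGT and diamonds TGCGGT on either strand, and grey lines mark the windows searched. Matches lie in 2 windows, the first of Runx1 and that of Runx2, 6 in all.

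These letters are common in the genome. Of 32851 such windows, 22.4% held at least 1 match, 2.86% at least 2 and 0.0639% (21 windows) at least 4. The share with at least 1 match was 20.6% in windows of all tested genes, 20.4% in those of genes higher in sgCbfb cells and 24.1% in those of genes lower. A match is a description of the sequence and no binding was measured. Reads from transcript ends also do not show which start a gene used.

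Of the 10 genes, 4 passed the threshold in the fit over all genes, Runx1, Runx2 and Tle4 higher and Cbfb lower in sgCbfb cells. The rule used this contrast, so the count is given beside the background of 2.83% without being read against it. Both sgCbfb libraries lay above both sgNT libraries for 4 genes and below them for 2, and the groups overlapped for the other 4. Over all tested genes the shares were 27.4% above and 16.8% below, and the members' counts, which the choice of genes affects, are not read against them. The median log2 fold change was 0.25 over the 10 genes and 0.039 over all tested genes.

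**Figure D2:**
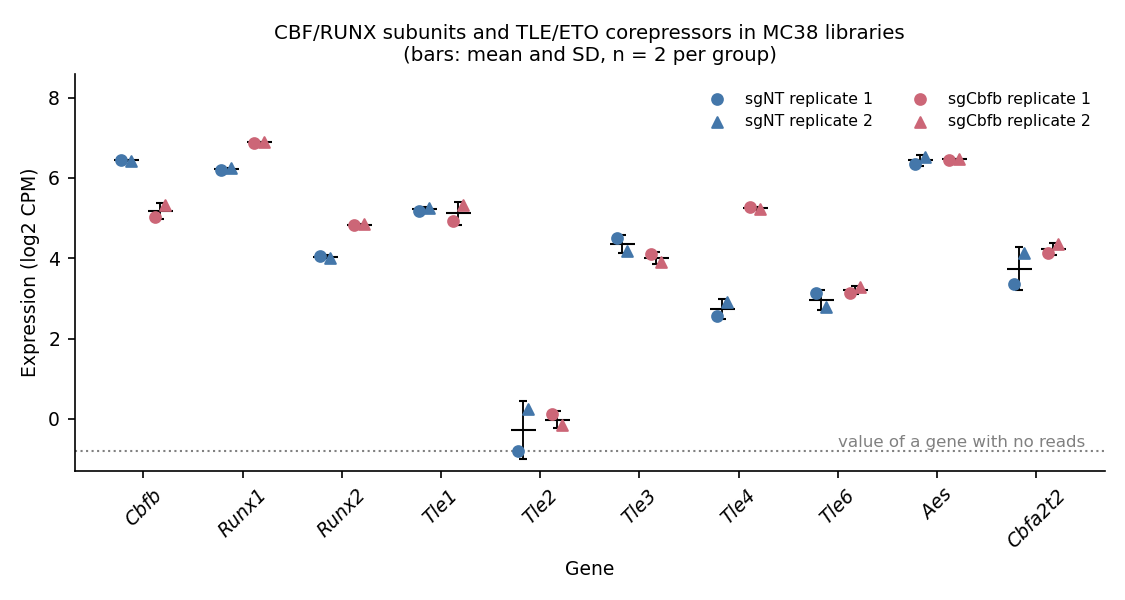
Expression of the 10 genes in log2 CPM in each library. Colours separate sgNT from sgCbfb, symbols separate the replicates, and bars give the mean and SD (n = 2). Tle4 moves from 2.73 to 5.25, the widest gap between the groups among these genes.

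Cbfb (chr8:105170674-105217989, plus strand, GENCODE M21 on GRCm38) encodes the subunit that the guide targets. It had 295 and 285 reads in the sgNT libraries and 125 in each sgCbfb library. Its level was 6.45 and 6.43 log2 CPM in sgNT and 5.03 and 5.31 in sgCbfb. Both sgCbfb libraries were low and the groups did not overlap. The log2 fold change was -1.27 (SE 0.12, 95% interval -1.52 to -1.02), and mean CPM in sgCbfb cells was 41.3% of that in sgNT cells. The reads lie at the transcript's end and do not measure editing at the guide's site. In a bulk library, less mRNA in every cell and no mRNA in some of the cells cannot be told apart. The study reports loss of CBFβ protein in MC38 cells by immunoblot, and protein was not measured in these libraries.

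Runx1 (chr16:92601466-92826149, minus strand) and Runx2 (chr17:44495987-44814797, minus strand) encode DNA-binding partners of CBFβ, best known for roles in blood formation and in bone formation. Runx1 had 249 and 252 reads in sgNT and 455 and 378 in sgCbfb, or 73.3 and 75.6 CPM against 116 and 119 CPM. Replicates of a group lay close together and both sgCbfb libraries were high. Its log2 fold change was 0.65 (SE 0.093, 95% interval 0.46 to 0.85). Runx2 gave fewer reads, 55 and 52 in sgNT and 108 and 90 in sgCbfb. These are 16.2 and 15.6 CPM against 27.6 and 28.2 CPM, again without overlap. The log2 fold change was 0.79 (SE 0.18, 95% interval 0.42 to 1.17). The intervals of the Runx1 and Runx2 changes overlapped, and the difference between them was not tested. The call of Runx2 was lost when either sgCbfb replicate was left out, with log2 fold changes of 0.81 and 0.78. A fit without 1 library leaves its group with a single library, which is assumed to vary like the other group.

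Both genes rose by similar factors, 1.58-fold and 1.76-fold in mean CPM, so that the balance between them moved little. Runx2 made up 18.1% (95% exact binomial interval 13.9 to 22.9%) and 17.1% (13.0 to 21.8%) of their joint reads in the sgNT libraries. In the sgCbfb libraries the share was 19.2% (16.0 to 22.7%) and 19.2% (15.8 to 23.1%). These intervals, and those below, cover counting error only. The balance with Cbfb moved far more. Runx1 and Runx2 together gave 1.03 and 1.07 reads for each Cbfb read in the sgNT libraries and 4.50 and 3.74 in the sgCbfb libraries. Joint RUNX mRNA was 89.5 and 91.2 CPM in sgNT and 144 and 147 CPM in sgCbfb. The third family member, Runx3, had no read in any library, and a count of 0 allows up to 3 reads, or 0.768 to 0.941 CPM.

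Tle4 (chr19:14448150-14598051, minus strand) encodes a full-length TLE corepressor. It had 18 and 23 reads in the sgNT libraries and 149 and 117 in the sgCbfb libraries. These correspond to 5.30 and 6.90 CPM against 38.1 and 36.7 CPM. Both sgCbfb libraries were high, and the gap between the groups was many times that between replicates. The log2 fold change was 2.52 (SE 0.22, 95% interval 2.07 to 2.97), and 3 of the 12207 tested genes had a larger one. The prior count in the deposited values shrinks the change of a gene with few reads, and the ratio of mean CPM was 6.13.

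Of the other full-length paralogs none passed the threshold, and Tle2 had too few reads to compare. Tle1 (chr4:72117142-72200919, minus strand) had 121 and 125 reads in sgNT and 116 and 125 in sgCbfb, with a log2 fold change of -0.098 (SE 0.15, 95% interval -0.41 to 0.22). Its groups overlapped, and the interval leaves room for a change of up to 0.41 downward. Tle3 (chr9:61372366-61418497, plus strand) had 75 and 59 reads in sgNT and 65 and 46 in sgCbfb. Its level was 4.50 and 4.19 log2 CPM in sgNT and 4.11 and 3.91 in sgCbfb, so the sgCbfb values were both under the sgNT values. The difference of -0.34 (SE 0.21, 95% interval -0.77 to 0.084) did not pass the threshold. Tle2 (chr10:81574561-81590845, plus strand) was near absent, with 0 and 2 reads in sgNT and 2 and 1 in sgCbfb, and no difference could be read at this depth.

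The short and the divergent relative did not pass the threshold. Aes (chr10:81559488-81566362, plus strand), which has been regarded as a brake on the full-length TLE proteins, had 274 and 306 reads in sgNT and 341 and 281 in sgCbfb. Its groups overlapped, with a log2 fold change of 0.027 (SE 0.099, 95% interval -0.18 to 0.23), the narrowest interval among the TLE genes. Tle6 (chr10:81590904-81601073, minus strand), known for its role in the oocyte and early embryo, had 28 and 21 reads in sgNT and 32 and 29 in sgCbfb. Its log2 fold change of 0.24 (SE 0.29, 95% interval -0.36 to 0.84) also came with overlapping groups. Of the 6 TLE family genes, the 1 that passed the threshold was Tle4, which was chosen because it was known to differ, and nothing is read from this count beside the 2.83% of all tested genes. Tle2 and Tle6 end 59 bases apart on opposite strands, and the sources used here do not say whether reads were counted by strand, so their reads may be mixed at this locus. The last 500 bases of the coding transcripts of Tle1, Tle3, Tle4, Tle6 and Aes shared no window of 75 bases, the read length, with another gene.

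**Figure D3:**
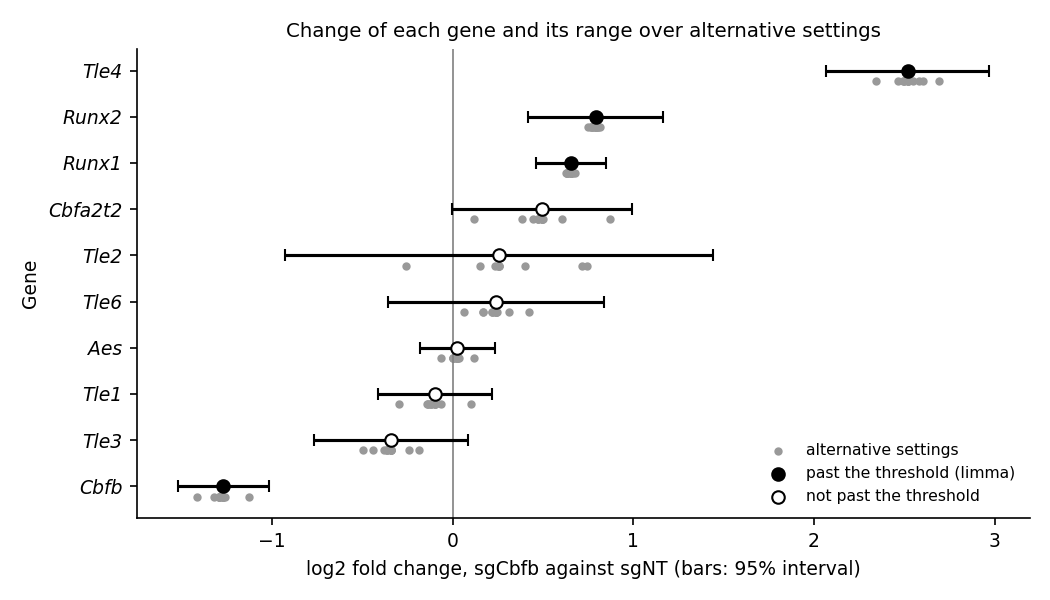
Difference of each gene between sgCbfb and sgNT cells on the log2 scale, with its 95% interval. Filled points passed the threshold in limma and open points did not, and grey dots give the same value under the alternative settings. Among the 6 TLE genes Tle4 alone is filled, at 2.52, and the intervals of the other 5 span 0.

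Because 3′ sequencing gives about 1 read position per transcript whatever its length, reads of different genes can be set side by side, apart from differences in priming. Tle4 made up 8.41% (95% exact binomial interval 5.06 to 13.0%) and 11.0% (7.11 to 16.1%) of the reads on Tle1, Tle2, Tle3 and Tle4 in the sgNT libraries. In the sgCbfb libraries it made up 44.9% (39.4 to 50.4%) and 40.5% (34.8 to 46.4%), with no overlap between groups. Tle4 had 0.149 and 0.184 reads for each Tle1 read in sgNT libraries and 1.28 and 0.936 in sgCbfb libraries. The share of Tle1 was 56.5% and 59.8% in sgNT and 34.9% and 43.3% in sgCbfb, although its own level did not pass the test. Joint mRNA of the 4 full-length genes was 63.0 and 62.7 CPM in sgNT and 85.0 and 90.6 CPM in sgCbfb. Without Tle4 it was 57.7 and 55.8 CPM in sgNT and 46.8 and 53.9 CPM in sgCbfb.

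Aes was the most abundant of the 6 family genes in every library, with 53.1% and 57.1% of their reads in sgNT and 48.4% and 46.9% in sgCbfb. Full-length TLE reads for each Aes read numbered 0.781 and 0.683 in sgNT and 0.974 and 1.03 in sgCbfb. These shares are tied to each other, since a larger share of Tle4 lowers every other one.

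**Figure D4:**
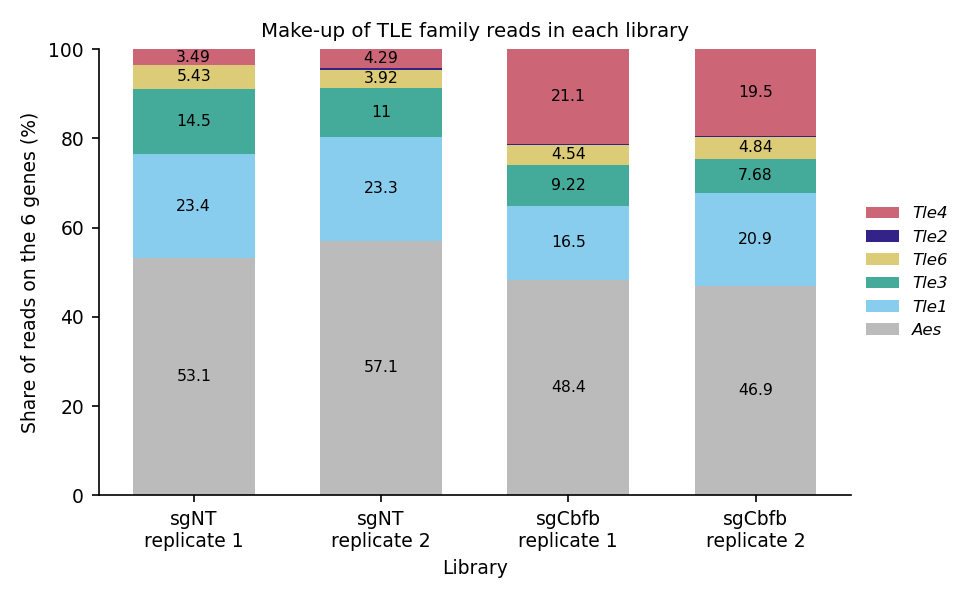
Share of reads on Tle1, Tle2, Tle3, Tle4, Tle6 and Aes in each library, in percent of the reads on these 6 genes. Tle4 takes 3.49% and 4.29% in the sgNT libraries and 21.1% and 19.5% in the sgCbfb libraries.

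Cbfa2t2 (chr2:154436481-154539356, plus strand) encodes an ETO family corepressor. It had 33 and 56 reads in the sgNT libraries and 66 and 63 in the sgCbfb libraries, or 3.36 and 4.12 log2 CPM against 4.13 and 4.35. The groups did not overlap, but the lower sgNT library stood 0.79 below the other on the log2 scale of recovered CPM, a gap 2.49 times its counting error. The log2 fold change of 0.49 (SE 0.24, 95% interval -0.0030 to 0.99) did not pass the threshold. It was 0.87 without sgNT replicate 2, a fit in which the spread comes from the sgCbfb libraries alone and the threshold was passed, and 0.12 without sgNT replicate 1. Part of its transcript end, 490 of 1683 windows of 75 bases, matches the pseudogene Cbfa2t2-ps1. Of its relatives, Runx1t1 had 2 and 8 reads in sgNT and 15 and 5 in sgCbfb, with a log2 fold change of 0.72 (95% interval -0.31 to 1.76) and overlapping groups. Leaving out 1 library moved this value between 0.048, without sgNT replicate 1, and 1.40, without sgNT replicate 2. Cbfa2t3 gave 1 read in 1 library and was not tested.

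In order of mean level, the sgNT cells had Cbfb and Aes at 6.44 log2 CPM each, Runx1 at 6.23, Tle1 at 5.21, Tle3 at 4.35, Runx2 at 4.04, Cbfa2t2 at 3.74, Tle6 at 2.96, Tle4 at 2.73 and Tle2 at -0.28. Cbfb and Aes, Runx2 and Cbfa2t2, and Tle6 and Tle4 were neighbours whose libraries overlapped. In sgCbfb cells the order was Runx1 at 6.88, Aes at 6.46, Tle4 at 5.25, Cbfb at 5.17, Tle1 at 5.12, Runx2 at 4.83, Cbfa2t2 at 4.24, Tle3 at 4.01, Tle6 at 3.20 and Tle2 at -0.020. There the libraries of Tle4, Cbfb and Tle1 overlapped. Tle4 ranked 9 of 10 in sgNT cells and stood at the level of Tle1 and of the remaining Cbfb mRNA in sgCbfb cells.

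The mRNAs of proteins through which TLE corepressors act were measured from a list of 15 genes for histone deacetylases and for subunits of the complexes that hold them, such as Hdac1, Sin3a, Rcor1 and Tbl1x. All 15 were tested and limma called 0 of them, against 2.83% of all tested genes. An unadjusted p-value under 0.05 was found for 4 of the 15, and for 1820 of all 12207 tested genes (14.9%). The median log2 fold change of the list was 0.074, against 0.039 over all tested genes, with 10 genes above 0 and 5 below. The deacetylase genes Hdac1, Hdac2 and Hdac3 had log2 fold changes of -0.13, 0.18 and -0.30. All 19 genes of the list of RUNX modifiers and partners were tested and limma called 0. An unadjusted p-value under 0.05 was found for 2, beside the same 14.9% of all tested genes, and the median was -0.013. With so few genes in each list, 0 called is not read as a lack of change.

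Of 21 DNA-binding factors that recruit TLE proteins, 13 were tested and 1 was called, with a median of 0.047, against 2.83% of all tested genes called and their median of 0.039. Hes1, a Notch target and transcriptional repressor, had 100 and 125 reads in sgNT and 195 and 168 in sgCbfb, and both sgCbfb libraries were high. Its log2 fold change was 0.62 (SE 0.14, Benjamini-Hochberg adjusted p = 0.0118 in limma). The list was chosen with earlier results of these data known, so this p-value is not independent evidence. The adjusted p ranged from 0.000194 to 0.327 over the alternatives, and the call was lost without sgNT replicate 1 (0.45), sgCbfb replicate 1 (0.66) or sgCbfb replicate 2 (0.58), with quantile normalization (0.59) and without the trend (0.62), each with its log2 fold change. The TCF/LEF genes Tcf7, Tcf7l1, Tcf7l2 and Lef1 had log2 fold changes of 0.034, 0.16, 0.064 and -0.62, none past the threshold.

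A list of 28 textbook RUNX targets had 10 tested genes, of which limma called 3 higher and 1 lower, with a median of 0.23, against 2.83% of all tested genes called and their median of 0.039. The list was drawn up with earlier results of these data known, that for Spp1 among them. Its count and the p-values of its genes are therefore not independent evidence. Another 14, mostly blood and bone genes, had no read in any library. Spp1, which encodes the matrix protein osteopontin, had 389 and 365 reads in sgNT and 66 and 63 in sgCbfb, and fell by 2.58 on the log2 scale (SE 0.13, adjusted p = 1.25e-12). Mmp9, a matrix metalloprotease, rose from 39 and 31 to 122 and 86 reads (log2 fold change 1.44, SE 0.21, adjusted p = 6.84e-05). Both genes had libraries well apart between the groups. Sox4, a transcription factor gene, had 347 and 338 reads in sgNT and 700 and 601 in sgCbfb, a log2 fold change of 0.85 (adjusted p = 1.90e-07). Cdkn1a, which encodes the cyclin-dependent kinase inhibitor p21, had 246 and 256 reads against 401 and 366, a log2 fold change of 0.54 (adjusted p = 0.00146), and its call was lost without sgCbfb replicate 2 (0.46), with quantile normalization (0.52) and without the trend (0.54). Over the alternatives the adjusted p reached 0.113 for Spp1, 0.115 for Mmp9, 0.129 for Sox4 and 0.291 for Cdkn1a at its highest.

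Genes with the most similar profile were named by the Euclidean distance between log2 CPM values centred on each gene's mean over the 4 libraries, among 10006 other genes with a mean of at least 10 reads. Nearest to Tle4 were Has2, a hyaluronan synthase gene (distance 0.22), Dlk1, which encodes a membrane protein related to Notch ligands (0.25), and Gng10, a G protein subunit gene (0.49). Their reads in sgNT and then sgCbfb libraries were 8, 11, 62 and 56 for Has2, 14, 14, 111 and 90 for Dlk1, and 2, 3, 18 and 22 for Gng10. All 3 were low in both sgNT libraries and high in both sgCbfb libraries. Nearest to Runx2 were Kdm5b (0.035), a histone demethylase gene, Lmtk3 (0.061) and Sp140 (0.070). Nearest to Runx1 were Rab6b (0.068), Tagln2 (0.071) and Alg2 (0.072), and nearest to Cbfb were Dgkh (0.053), Bhlhe41 (0.069) and Qrfp (0.15). Of these neighbours, Lmtk3, Sp140, Alg2 and Bhlhe41 did not pass the threshold. Reads in sgNT and then sgCbfb libraries were 9, 9, 19 and 16 for Lmtk3 and 17, 17, 6 and 6 for Bhlhe41. With 4 libraries such a distance mostly measures the gap between the groups.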

How the data were processed

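Reads from QuantSeq 3′ mRNA libraries of MC38 cells were, per the study's methods and the submitters' processing notes, trimmed with cutadapt 1.9, aligned to GRCm38/mm10 with HISAT2 2.1.0 and counted per gene with featureCounts (2.0.1 in the notes, another version in the methods). The authors deposited log2 CPM, 1 column per library, with an implied prior count of 2. The tool that made them, the annotation and the strand setting are not given in the sources used here.

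Reads were recovered from the steps between values, within 0.1 of a whole number for at least 99.99% of values, and used for reads, CPM and shares. Exact binomial (Clopper-Pearson) intervals are at 95%. The groups were compared with limma 3.58.1 in R 4.3.3 (lmFit, eBayes with trend, two-sided) on the log2 CPM as deposited. This covered the 12207 genes whose log2 CPM reached 0 in 2 or more libraries. Benjamini-Hochberg adjustment was used with a threshold of 0.05. The study's methods name voom with limma, which takes counts, and voom on the recovered reads was run as an alternative. The procedure was tested on simulated data.

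Groups came from the sample labels. The members and the gene lists (TLE repression machinery, TLE recruiting factors, RUNX modifiers and partners, textbook RUNX targets, other CBF and ETO genes, and blood, intestinal epithelial and mesenchymal markers) were chosen with earlier results of these data known. Genes named are the members, every list gene past the threshold, Runx3, Runx1t1 and Cbfa2t3, and the 3 nearest profiles of Cbfb, Runx1, Runx2 and Tle4. Other list genes named for their values (the histone deacetylase genes, the TCF/LEF genes and the cell type markers), and Supt3, which overlaps Runx2, were chosen after their values were seen. Alternatives were other filters, scalings and thresholds, no trend, voom, a replicate block and each library left out. Positions are from GENCODE M21 and promoters from RefSeq, both on GRCm38. Python 3.11.15 was used for the remaining steps.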

Additional observations from a re-analysis of the deposited data

How the results depend on the processing

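The direction of Cbfb, Runx1, Runx2, Tle3, Tle4, Tle6 and Cbfa2t2 was the same in every alternative run, with log2 fold changes of -1.41 to -1.12 for Cbfb, 0.63 to 0.68 for Runx1 and 2.35 to 2.69 for Tle4. Without the mean-variance trend 0 genes passed in limma in either direction, although 1461 had an unadjusted p-value under 0.05. There Cbfb (-1.27), Runx1 (0.65), Runx2 (0.79) and Tle4 (2.52) kept their values without passing, so 0 members and 0 pathway list genes were called. Quantile normalization gave 39 genes higher and 44 lower and 3 genes called in the pathway lists (cell type markers not counted) instead of 5, and Runx2 (0.75) did not pass. A minimum of 5 CPM gave 300 genes higher. Tle2 did not pass the filter there, nor without sgNT replicate 2 or sgCbfb replicate 1, so it has no value in these fits. A threshold of 0.01 gave 103 higher and 97 lower. Voom on the recovered reads gave 258 higher and 196 lower with library totals, and 199 higher and 222 lower with median scaling. It called 4 members each time. Median centring gave 176 higher and 188 lower, and leaving out the ribosomal RNA genes gave 155 and 165. Which direction had more genes thus depended on the scaling. Leaving out 1 library gave 61 to 234 genes higher, 86 to 161 lower, 3 to 5 members and 3 to 5 pathway list genes called. The log2 fold change then ran from 0.77 to 0.82 for Runx2, -0.29 to 0.10 for Tle1, -0.26 to 0.40 for Tle2 (2 fits), -0.50 to -0.19 for Tle3, 0.062 to 0.42 for Tle6, -0.065 to 0.12 for Aes and 0.12 to 0.87 for Cbfa2t2. The sign turned without sgCbfb replicate 1 for Tle1 and without sgNT replicate 1 for Tle2 and Aes. The cause was not tested. Depth limits the genes with few reads, Tle2, Tle6, Runx1t1, Cbfa2t3 and Runx3 among them, and Tle4 in sgNT cells.

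With the replicate number as a block, 320 genes were higher, and 535 differed in all. The deviations of libraries with the same number had a correlation of -0.0042 across genes. A value over all genes cannot show whether same-numbered libraries shared a culture or a preparation, which the sources used here do not state.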

Other observations

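Among the 10 genes, outside Tle1 and Cbfa2t2 and leaving aside Tle2, the gap between replicates was at most 1.61 times its counting error. The gap between the sgCbfb libraries in Tle1, 116 and 125 reads at unequal totals, was 2.16 times its counting error, and that between the sgNT libraries in Cbfa2t2 was 2.49 times. For Runx1t1 it was 1.78 times in sgNT and 1.73 times in sgCbfb. For Runx1, Runx2 and Tle4 the gap was below 1 counting error in both groups. Runx2 lies across Supt3, a subunit gene of the SAGA transcription complex on the opposite strand, which had 56 and 35 reads in sgNT and 82 and 65 in sgCbfb. The start of Supt3 lies 281165 bases from the end of Runx2, where Runx2 reads are expected.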
